A study of Homo sapiens with 6 samples.

Results

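The genes described here are 10 that make miRNAs or act with them. DROSHA, DGCR8, XPO5, DICER1 and TARBP2 carry out the processing and export of the miRNA precursor, AGO1, AGO2, AGO3 and AGO4 bind the mature miRNA, and TNRC6A links the Argonautes to the enzymes that silence the target mRNA. They were taken by name, with earlier results of these data known, out of 21743 genes whose RefSeq transcripts have a probe on the array. All 14 probes for a transcript of these genes were followed. MDA-MB-231, a human breast cancer cell line with a mesenchymal appearance, received by transfection a precursor of hsa-miR-205-5p, one of hsa-miR-214-3p or a scrambled one (SCR), each at 30 nM according to the methods, and RNA was collected at 72 h. Each of the 3 groups has 2 one-colour Agilent arrays, the cells carry no other alteration named in the labels, and untransfected cells were not analysed here. The labels call the arrays of a group replicates without stating that they came from separate cultures, so the p-values measure the spread between these samples, which may be technical.

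A miRNA is cut from its primary transcript in the nucleus by DROSHA, an RNase III enzyme that works with the RNA-binding protein DGCR8. The resulting hairpin leaves the nucleus bound to XPO5 (exportin-5) and its partner RAN, and in the cytoplasm DICER1, another RNase III enzyme, removes the loop with the help of TARBP2. One strand is then loaded into an Argonaute protein, and base pairing of the seed, the stretch next to the 5′ end of the miRNA, guides that protein to its target mRNA. AGO2 is the Argonaute best known for cutting a fully paired target.

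The 2 mature miRNAs are shown because they are the mature strands that name the transfected precursors, with the seed (bases 2 to 8) in capitals (RefSeq, GRCh38.p14). hsa-miR-205-5p lies at chr1:209432166-209432187 on the plus strand and hsa-miR-214-3p at chr1:172138816-172138837 on the minus strand.
hsa-miR-205-5p: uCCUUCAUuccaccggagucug
hsa-miR-214-3p: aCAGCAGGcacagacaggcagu
The seeds differ. Among the 2370 mature miRNAs of the table, 0 others share the seed of hsa-miR-205-5p, while hsa-miR-761 and hsa-miR-3619-5p share that of hsa-miR-214-3p. The natural stem-loops of both miRNAs have 110 bases each in the table, including flanks that DROSHA removes before XPO5 and DICER1 handle the shorter hairpin, and are given with the mature arm in capitals. The arm sits before the loop in MIR205 and after it in MIR214. Whether the transfected precursors have these sequences outside the mature strand is not stated in the sources used here.
MIR205: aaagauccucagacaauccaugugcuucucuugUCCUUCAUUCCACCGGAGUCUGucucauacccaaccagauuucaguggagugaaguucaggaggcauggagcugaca
MIR214: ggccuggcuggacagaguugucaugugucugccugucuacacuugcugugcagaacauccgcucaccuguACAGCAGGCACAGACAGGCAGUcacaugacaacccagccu
Target sites in the mRNAs of the genes were not searched.

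Values are normalized log2 signals, the log2 processed signal of a probe minus the 75th percentile of its array, so a value of 0 is the 75th percentile and a difference of 1 is a change of 2-fold. A signal of one probe cannot be set against that of another. Differences were tested with limma over the 6 arrays, and the p-values were adjusted (Benjamini-Hochberg) across the 18464 probes that rose well above background on both arrays in 1 or more groups. A probe passed the test at an adjusted p under 0.05, and it was called when it also changed by at least 2-fold. Of the 14 probes, 12 (9 genes) could be tested, and all 12 were well above background on all 6 arrays. The exceptions were the probe of AGO4 and 1 of 3 probes of XPO5. The replicates lay at a root mean square distance of 0.51 (hsa-miR-205-5p), 0.34 (hsa-miR-214-3p) and 0.67 (SCR) over the tested probes, and between 35.5% and 42.2% of the spots of an array were well above background. The arrays of each group lay next to each other on 1 slide, so position and group cannot be told apart. Of the markers of the line, VIM, CD44, AXL, CAV1, MSN and ITGB1 were well above background on all 6 arrays and ESR1 and PGR on 0, but CDH1, EPCAM, KRT19 and GATA3, fixed as absent or low, were above it on all 6. Of the markers of other cell types, DES was above background on all 6 arrays, a probe of PECAM1 on 3 (0 of them with hsa-miR-205-5p, where it was called lower), PTPRC on up to 2 and COL1A1 on 0.

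**Figure D1:**
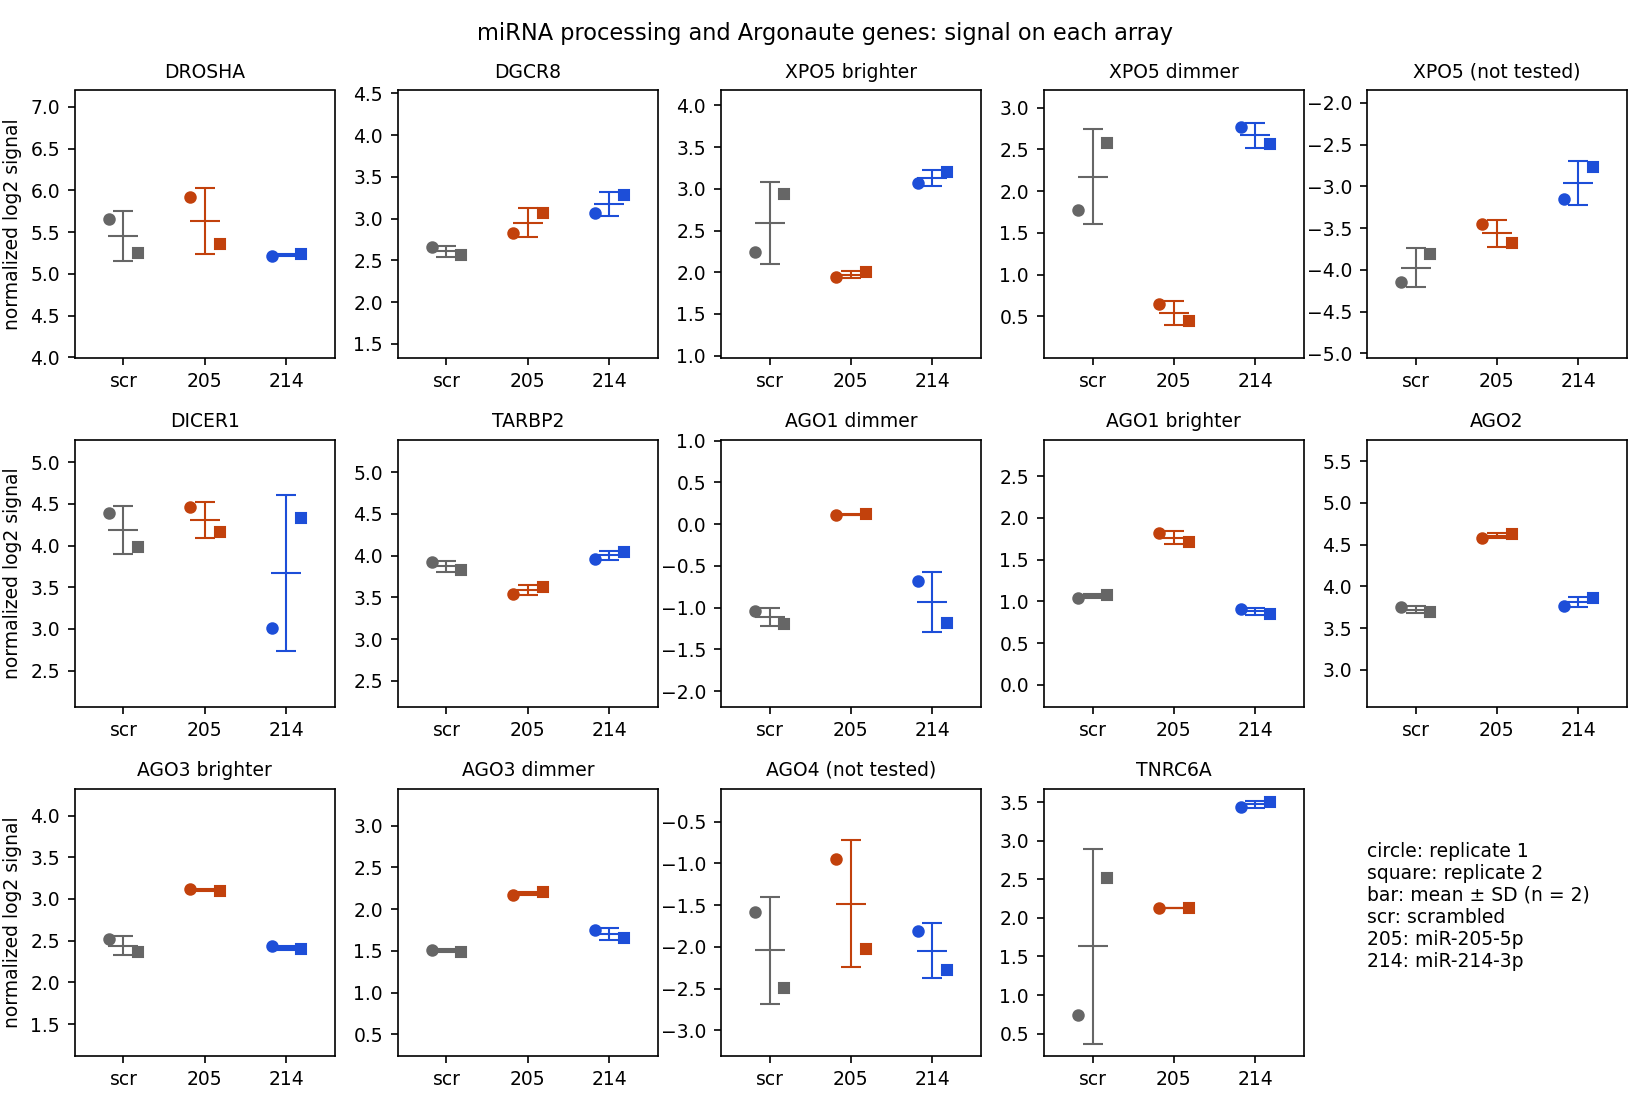
Normalized log2 signal (vertical axis) of the 14 probes of the 10 genes on each of the 6 arrays, by group (horizontal axis), with the mean and SD of each group (n = 2). The axes span at least the same range but are not shared. The hsa-miR-205-5p arrays lie above the other 4 arrays for the tested probes of AGO1, AGO2 and AGO3 and below them for both tested probes of XPO5 and for TARBP2, and SCR replicate 1 stands far from SCR replicate 2 for TNRC6A.

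The Argonaute genes AGO1, AGO2 and AGO3 had higher signals with hsa-miR-205-5p than in SCR, by 1.59-fold to 2.34-fold over their 5 probes, and the nuclear export gene XPO5 had a lower signal, by 3.10-fold on 1 probe. Of the 12 tested probes, 5 passed the test as higher, against 8.30% of all tested probes, and 1 passed as lower, against 11.1%. These 5 probes stand for 3 genes, and they are all the tested probes of the Argonautes. With the 2-fold limit, 1 of 12 was called higher (4.14% of all tested probes) and 1 lower (8.05%). The median log2 fold change was 0.42 over the 12 probes and 0.05 over all tested probes. With hsa-miR-214-3p, 0 of the 12 probes passed in either direction in limma (1.08% of all tested probes were higher and 1.73% lower), and 2 were higher at an unadjusted p under 0.05, beside 12.3% lower and 10.3% higher of all tested probes. The median of the 12 was 0.15, against −0.01 over all tested probes.

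**Figure D2:**
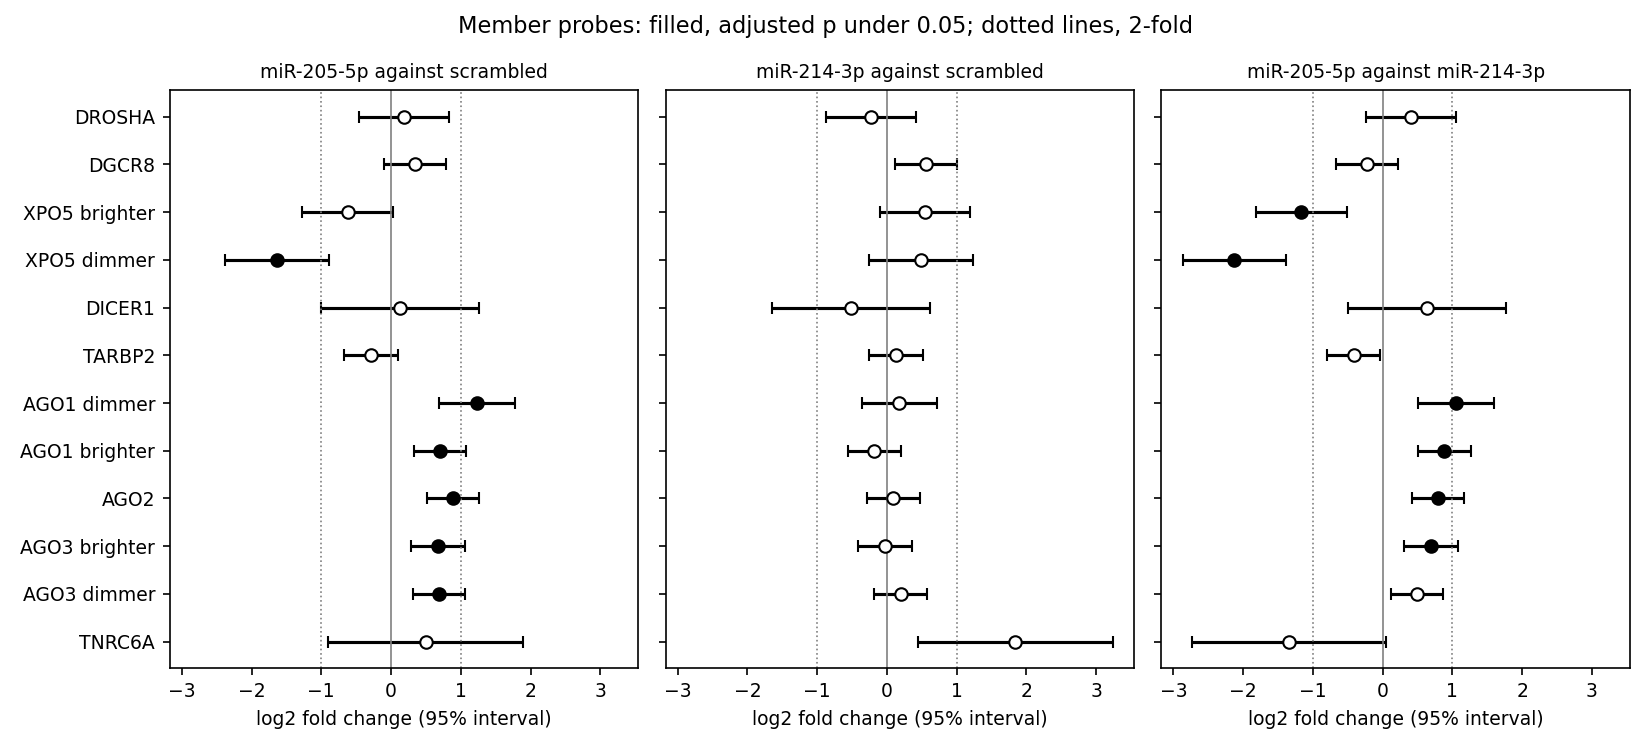
Log2 fold change (horizontal axis) of the 12 tested probes in the 3 comparisons, with 95% intervals from limma and dotted lines at 2-fold. Filled points passed the test at an adjusted p under 0.05, 6 with hsa-miR-205-5p against SCR, 0 with hsa-miR-214-3p against SCR and 6 between both precursors. The 5 Argonaute probes lie to the right of 0 in the panels with hsa-miR-205-5p.

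AGO2 is printed as 10 spots on each array, of which 8 to 10 were used after outlier spots were left out. Its normalized log2 signal was 4.58 and 4.63 with hsa-miR-205-5p, 3.77 and 3.86 with hsa-miR-214-3p, and 3.75 and 3.69 in SCR. Both hsa-miR-205-5p arrays stood above the other 4, which lay close together. The spots of an array scattered with an SD between 0.07 and 0.13 over the arrays, which is the spread of the measurement within an array and not that between samples. The log2 fold change of hsa-miR-205-5p against SCR was 0.89 (SE 0.15, limma adjusted p = 0.0186), a rise of 1.85-fold. With hsa-miR-214-3p it was 0.09 (95% interval −0.28 to 0.47, adjusted p = 0.75).

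AGO1 and AGO3 lie side by side with AGO4 on chromosome 1, all on the plus strand, in the order AGO4, AGO1 and AGO3, with starts 75.2 kb and 47.9 kb apart. The dimmer probe of AGO1 (A_33_P3380587) had normalized log2 signals of 0.11 and 0.12 with hsa-miR-205-5p, −0.68 and −1.19 with hsa-miR-214-3p and −1.03 and −1.19 in SCR. The hsa-miR-205-5p arrays were again above all others, while the other groups overlapped. The log2 fold change against SCR was 1.23 (SE 0.22, limma adjusted p = 0.0207), which was the 1 higher call among the 12 probes. The brighter probe of AGO1 (A_33_P3402116), for the same transcript, gave 1.82 and 1.71 with hsa-miR-205-5p, 0.91 and 0.85 with hsa-miR-214-3p and 1.04 and 1.08 in SCR. Here, too, only the hsa-miR-205-5p arrays lay above SCR, with a log2 fold change of 0.70 (SE 0.15, limma adjusted p = 0.0329), and the hsa-miR-214-3p arrays lay just below SCR, by −0.18 (95% interval −0.56 to 0.20).

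AGO3 had normalized log2 signals on its brighter probe (A_23_P97021) of 3.12 and 3.10 with hsa-miR-205-5p, 2.43 and 2.40 with hsa-miR-214-3p and 2.52 and 2.36 in SCR. On its dimmer probe (A_33_P3244882) they were 2.17 and 2.20, 1.75 and 1.65, and 1.52 and 1.49, in the same order of groups. On both probes the hsa-miR-205-5p arrays stood above the other 4. The log2 fold changes with hsa-miR-205-5p were 0.67 (limma adjusted p = 0.0384) and 0.68 (adjusted p = 0.034), and those with hsa-miR-214-3p were −0.02 (95% interval −0.41 to 0.36) and 0.20 (−0.18 to 0.57). AGO4 could not be tested. Its probe was well above background on 2 of the 6 arrays, replicate 1 of hsa-miR-205-5p (−0.95) and replicate 1 of SCR (−1.59), and the other 4 arrays read between −2.49 and −1.81.

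The rise of the Argonautes with hsa-miR-205-5p kept its direction on all 5 probes under the 19 other settings tried, but not its side of the threshold. AGO2 ranged from 0.50 to 0.92, with the lowest value when arrays were scaled to their median (adjusted p = 0.112). That scaling lowers all log2 fold changes of this comparison, so that the median of all tested probes moves from 0.05 to −0.34 and the calls over all tested probes from 8.05% lower and 4.14% higher to 15.8% and 1.49%. With either hsa-miR-205-5p array left out, the 5 probes kept log2 fold changes between 0.65 and 1.23, with adjusted p between 0.0786 and 0.148 from limma. Of all tested probes, 6.22% were called without replicate 1 of hsa-miR-205-5p and 0 without replicate 2. With either hsa-miR-214-3p array left out 1 of the 5 probes, the dimmer one of AGO1, still passed. Without SCR replicate 2 that probe had an adjusted p of 0.0567 from limma, at a log2 fold change of 1.15. Part of a set of luminal or epithelial markers was higher in the same arrays. The summed linear signal of the whole set, relative to the 75th percentile, was 1499 to 1734 with hsa-miR-205-5p, 671 to 727 with hsa-miR-214-3p and 616 to 820 in SCR. The sum follows its brightest probe, that of KRT19, and is not a measure of the set as a whole. Without KRT19 the sum was 9.96 to 12.9, 3.20 to 3.50 and 3.35 to 3.39 in the same order. Of the 4 tested genes of the set, 3 were called higher with hsa-miR-205-5p, beside 4.14% of all tested probes. These were CDH1 by 1.96, EPCAM by 2.40 and KRT19 by 1.18 (log2). Of 8 tested probes of the mesenchymal markers, 0 passed in either direction, beside 11.1% lower and 8.30% higher of all tested probes. The part of the luminal or epithelial markers in the Argonaute result was not tested. In a total RNA sample, a higher level in every cell cannot be told apart from more cells with a high level.

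**Figure D3:**
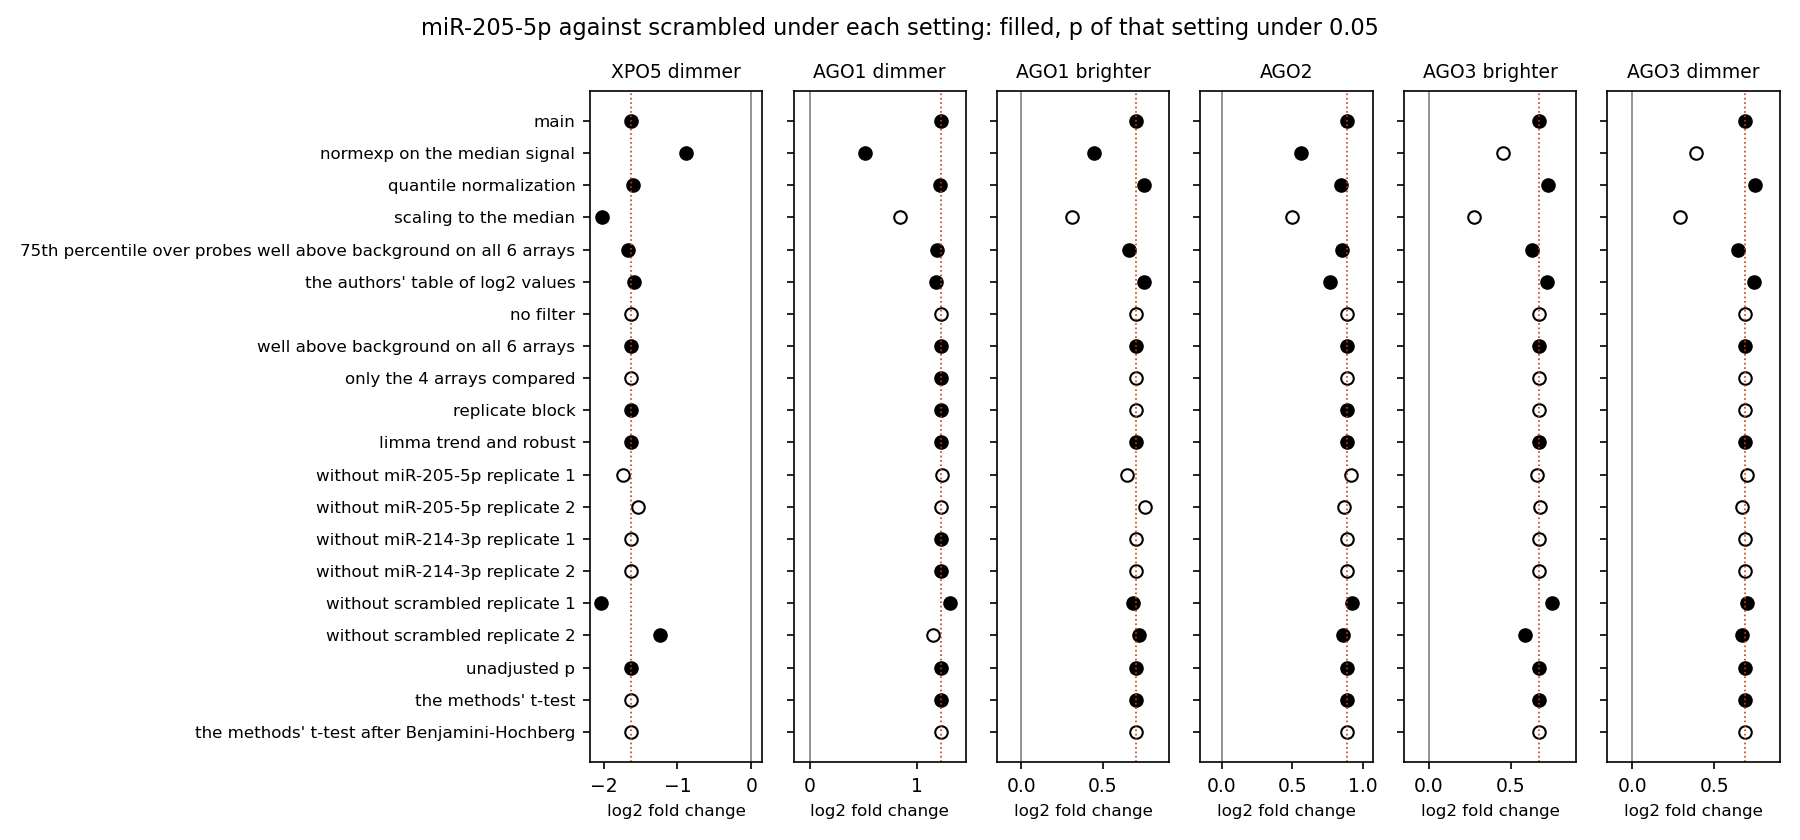
Log2 fold change of hsa-miR-205-5p against SCR (horizontal axis, own scale in each panel) for the 6 probes that passed the test, under the main setting and 19 others (vertical axis). Filled points have a p under 0.05 by the test of that setting, the solid line is at 0 and the dotted line at the main value. The points of AGO1, AGO2 and AGO3 stay to the right of 0 and those of XPO5 to its left, while the points of all 6 probes are open without either hsa-miR-205-5p array, with no filter and with the adjusted test of the methods, and those of some probes in other settings.

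The promoters of AGO1 and AGO3, whose probes moved together, are shown beside that of XPO5, whose signal went the other way. Each is the stretch of 250 bases before the start of the gene (RefSeq, GRCh38.p14), written 5′ to 3′ on the strand of the gene, with matches to 5 motifs on either strand in capitals. The motifs were the GC box GGGCGG, the ETS core CCGGAAG, the CCAAT box CCAAT, the E-box CACGTG and the TATA box TATAAA. AGO1 is at chr1:35882959-35883208 (plus strand), AGO3 at chr1:35930855-35931104 (plus strand) and XPO5 at chr6:43576039-43576288 (minus strand).
AGO1: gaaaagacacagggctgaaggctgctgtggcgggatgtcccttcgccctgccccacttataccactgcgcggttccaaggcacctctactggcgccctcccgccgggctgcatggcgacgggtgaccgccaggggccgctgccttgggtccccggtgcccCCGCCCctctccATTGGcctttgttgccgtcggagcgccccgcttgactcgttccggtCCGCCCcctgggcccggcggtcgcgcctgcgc
AGO3: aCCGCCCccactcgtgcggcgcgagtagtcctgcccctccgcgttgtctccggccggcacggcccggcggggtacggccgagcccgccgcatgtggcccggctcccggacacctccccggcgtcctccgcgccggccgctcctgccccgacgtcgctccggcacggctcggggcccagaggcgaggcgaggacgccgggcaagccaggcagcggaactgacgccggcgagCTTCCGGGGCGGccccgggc
XPO5: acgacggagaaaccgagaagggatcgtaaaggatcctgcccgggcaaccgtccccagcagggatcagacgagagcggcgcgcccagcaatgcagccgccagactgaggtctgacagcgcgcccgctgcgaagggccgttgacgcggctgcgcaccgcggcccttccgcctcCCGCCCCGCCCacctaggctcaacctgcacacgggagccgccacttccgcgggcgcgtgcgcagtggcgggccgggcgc
All 3 stretches hold 2 GC boxes, and 42.6% of the 35116 stretches of this length in the table hold at least 1. The share that holds 2 was not counted. Elsewhere among the 10 genes, DGCR8, which did not pass the test, also holds 2, at a G and C content of 80.0%, while AGO4 holds 0. No stretch of AGO2 was examined. The copies in XPO5 overlap by 1 base. AGO1 also holds 1 CCAAT box (32% of all stretches), and AGO3 holds 1 ETS core (8.52%), which overlaps a GC box. The E-box (6.34%) and the TATA box (10.7%) were in none of the 3. Their G and C content was 71.6% in AGO1, 80.0% in AGO3 and 72.4% in XPO5, against a median of 58.0% over all stretches.

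XPO5 was the 1 gene of the 10 with a lower call. On the dimmer of its tested probes (A_33_P3228366) the normalized log2 signal was 0.65 and 0.44 with hsa-miR-205-5p, 2.77 and 2.56 with hsa-miR-214-3p and 1.78 and 2.58 in SCR. The hsa-miR-205-5p arrays stood below all others, and the 2 SCR arrays were far apart. The log2 fold change against SCR was −1.63 (SE 0.30, limma adjusted p = 0.0219). The brighter probe (A_23_P256855), for the same transcript, read 1.94 and 2.00, 3.07 and 3.20, and 2.25 and 2.94 in the same order. It also had the hsa-miR-205-5p arrays below the other 4, with a smaller difference of −0.62 (95% interval −1.27 to 0.02, adjusted p = 0.145) and did not pass. The third probe was well above background on 0 of 6 arrays. With hsa-miR-214-3p both tested probes lay above SCR, by 0.49 and 0.54, and neither passed (adjusted p = 0.383 and 0.285 from limma). These values moved with the SCR array left out. Without SCR replicate 1, both probes were lower with hsa-miR-205-5p (−2.03, adjusted p = 0.00819, and −0.97, adjusted p = 0.0155), and without SCR replicate 2 the differences shrank to −1.23 (adjusted p = 0.0286) and −0.28 (adjusted p = 0.22 from limma). With hsa-miR-214-3p the differences were 0.89 (adjusted p = 0.0491) and 0.89 (adjusted p = 0.0341) without SCR replicate 2, but 0.09 (adjusted p = 0.774) and 0.20 (adjusted p = 0.407) without SCR replicate 1. The dimmer probe lost its call with either array of either precursor left out, at log2 fold changes between −1.74 and −1.53 and adjusted p between 0.062 and 0.102.

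The nuclear processing genes did not pass the test in any comparison. DROSHA read 5.92 and 5.35 with hsa-miR-205-5p, 5.22 and 5.24 with hsa-miR-214-3p and 5.66 and 5.24 in SCR, and the groups overlapped or nearly touched. Its log2 fold changes were 0.18 (95% interval −0.46 to 0.83) and −0.22 (−0.87 to 0.42). DGCR8 read 2.83 and 3.07 with hsa-miR-205-5p, 3.07 and 3.28 with hsa-miR-214-3p and 2.66 and 2.57 in SCR, so that all 4 precursor arrays lay above both SCR arrays. The differences were 0.34 (limma adjusted p = 0.221) and 0.56 (95% interval 0.12 to 1.01, unadjusted p = 0.0213 and limma adjusted p = 0.148).

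The Dicer complex gave no passing probe either. DICER1, measured on a transcript variant of the gene, read 4.46 and 4.16 with hsa-miR-205-5p, 3.01 and 4.33 with hsa-miR-214-3p and 4.39 and 3.98 in SCR. Replicate 1 of hsa-miR-214-3p stood apart as low on this probe, while the other 5 arrays lay between 3.98 and 4.46. The log2 fold change with hsa-miR-214-3p was −0.52 (95% interval −1.65 to 0.62) and turned to 0.15 without that array, and the value with hsa-miR-205-5p was 0.12 (−1.01 to 1.26). TARBP2 read 3.54 and 3.63 with hsa-miR-205-5p, 3.96 and 4.04 with hsa-miR-214-3p and 3.92 and 3.83 in SCR. Its hsa-miR-205-5p arrays were the lowest of the 6, by a small margin, with a difference from SCR of −0.29 (limma adjusted p = 0.228). Scaled to the array medians it was −0.68 and passed (adjusted p = 0.0489). Against hsa-miR-214-3p it differed by −0.42 (unadjusted p = 0.0374, limma adjusted p = 0.0889) and passed in 5 of 19 other settings.

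TNRC6A (GW182), which holds an Argonaute and the deadenylases together, was the gene of the 10 on which the SCR replicates disagreed most. Its normalized log2 signal was 2.13 and 2.13 with hsa-miR-205-5p, 3.44 and 3.50 with hsa-miR-214-3p, and 0.74 and 2.52 in SCR. The precursor arrays of each group agreed closely, and the hsa-miR-205-5p arrays lay between the SCR arrays. The log2 fold change with hsa-miR-214-3p was 1.84 (SE 0.56, 95% interval 0.44 to 3.24, unadjusted p = 0.0188 and limma adjusted p = 0.141). Without SCR replicate 2 it was 2.73 (adjusted p = 0.0233), and without SCR replicate 1 it was 0.95 (adjusted p = 0.058). With hsa-miR-205-5p it was 0.50 (95% interval −0.90 to 1.89), or 1.39 (adjusted p = 0.0206) and −0.39 without SCR replicate 2 and 1.

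Set directly against hsa-miR-214-3p, hsa-miR-205-5p had lower XPO5 and higher Argonaute signals. Of the 12 probes, 4 passed as higher (15.7% of all tested probes) and 2 as lower (16.0%), and with the 2-fold limit 1 was called higher (8.37%) and 2 lower (11.6%). XPO5 differed by −2.12 (limma adjusted p = 0.00763) and −1.16 (adjusted p = 0.0247) on its 2 probes. AGO1 differed by 1.05 and 0.88, AGO2 by 0.79 and AGO3 by 0.69 on its brighter probe, while the dimmer probe of AGO3, at 0.49, did not pass (adjusted p = 0.0574). TNRC6A differed by −1.34 (limma adjusted p = 0.118), although its 2 groups were far apart, since all 6 arrays entered the spread. With only the 4 arrays compared in the fit, it passed (adjusted p = 0.00399). Leaving out an array of either precursor ended most of these results. The 4 Argonaute probes then kept log2 differences of 0.68 to 1.30 with adjusted p between 0.0559 and 0.166, and the brighter probe of XPO5 had adjusted p between 0.0884 and 0.139, while its dimmer probe passed without either hsa-miR-205-5p array but not without either hsa-miR-214-3p array (adjusted p = 0.0598 and 0.0584). Both hsa-miR-205-5p arrays lay above the other 4 arrays for 5 of the 12 probes and below them for 3, against 27.5% and 22.7% of all tested probes. The count below is thus near that of all probes.

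The other genes of the pathway came from lists of 81 genes, of which 65 (94 probes) could be tested. With hsa-miR-205-5p, 11 of the 94 probes passed as lower and 5 as higher, and 9 and 1 of these were called. The lower counts are near the shares over all tested probes (11.1% and 8.05%) and the higher counts are under them (8.30% and 4.14%). The median log2 fold change was 0.06. Scaled to the array medians, 16 probes were called lower and 0 higher, beside 15.8% and 1.49% of all tested probes. With hsa-miR-214-3p, 0 probes passed in limma, and 10 were lower and 6 higher at an unadjusted p under 0.05, shares under the 12.3% and 10.3% of all tested probes. The values ran from −1.16 in CNOT6L (adjusted p = 0.0609), a deadenylase, to 1.43 in TNRC6C (adjusted p = 0.0577), a paralog of TNRC6A. With hsa-miR-214-3p, 1 of the 2 arrays had this CNOT6L probe well above background. The brighter probes of these genes differed by 0.20 (CNOT6L, adjusted p = 0.609 from limma) and 0.15 (TNRC6C, adjusted p = 0.695). Without SCR replicate 2, limma called 8 of the 94 probes with hsa-miR-214-3p, 2 lower and 6 higher, beside 3.84% lower and 5.74% higher of all tested probes in that fit.

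**Figure D4:**
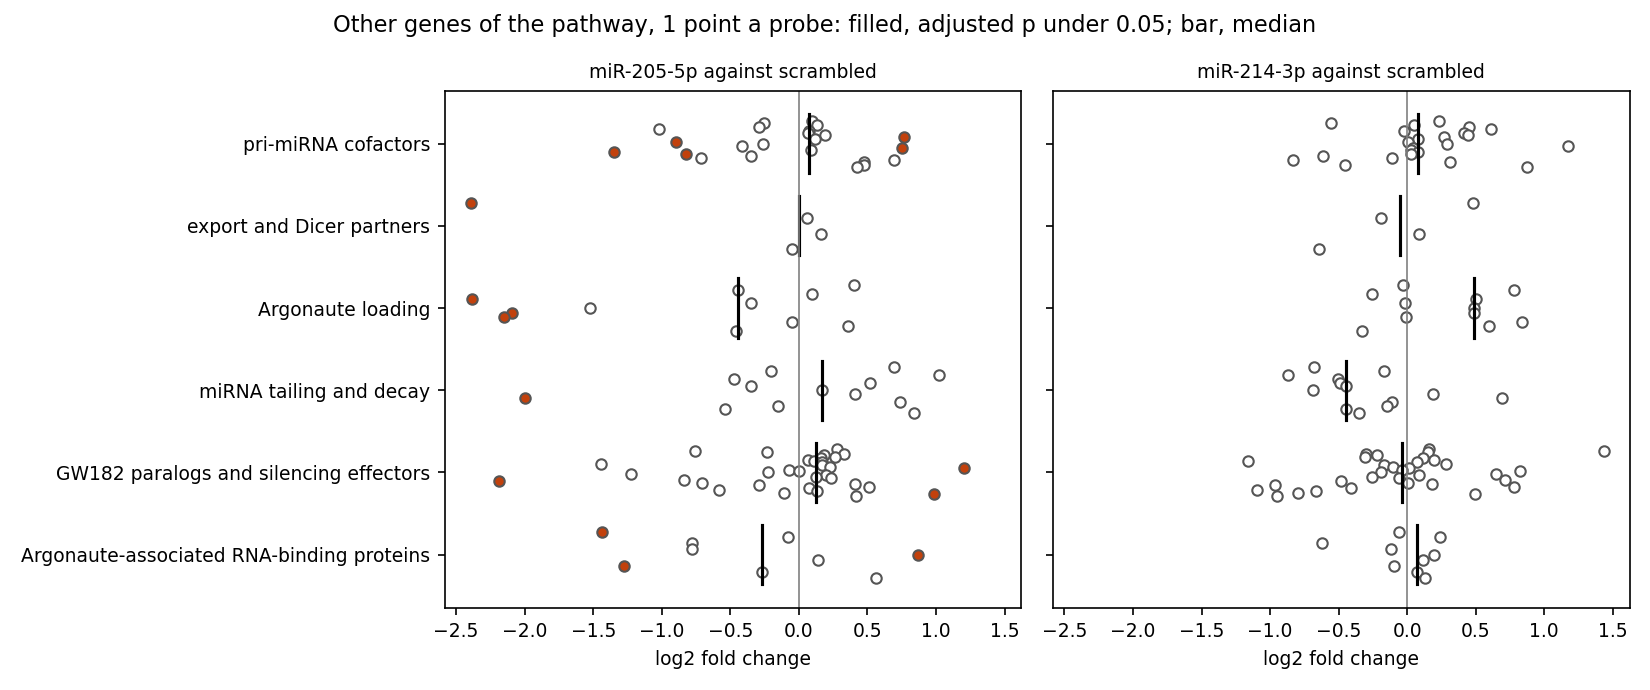
Log2 fold change (horizontal axis) against SCR of the tested probes of 6 lists of other pathway genes, 1 point a probe, with the list median as a bar, for hsa-miR-205-5p (left) and hsa-miR-214-3p (right). Filled points passed the test at an adjusted p under 0.05. All lie in the left panel, and the lowest, near −2.4, are single probes of RAN and HSP90AB1.

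Among the partners of XPO5 and DICER1, RAN, the small GTPase that XPO5 needs to hold its cargo, had a log2 fold change of −2.39 on 1 probe with hsa-miR-205-5p (limma adjusted p = 0.0305). That probe read 3.98 and 3.97 with hsa-miR-205-5p, 6.83 and 6.88 with hsa-miR-214-3p and 5.58 and 7.16 in SCR. Its brighter probe for the same transcript was 0.06 (adjusted p = 0.885), with all 6 arrays between 9.54 and 10.15. The lower value was thus seen on only 1 of the 2 probes of RAN. Its size moved with the SCR arrays, from −3.18 without SCR replicate 1 to −1.60 without SCR replicate 2, and the probe passed in 2 of the 6 fits with an array left out.

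The list for the loading of small RNAs into Argonaute held chaperones of the HSP90 and HSP70 families, their helpers and IPO8, an importin. Of its 11 tested probes (7 genes), 3 passed as lower with hsa-miR-205-5p and 0 as higher, beside 11.1% and 8.30% of all tested probes. STIP1, which bridges the chaperones, was lower on both probes. Its brighter probe read 0.85 and 1.17 with hsa-miR-205-5p, 3.43 and 3.75 with hsa-miR-214-3p and 2.87 and 3.33 in SCR, a log2 fold change of −2.09 (limma adjusted p = 0.00924). Its dimmer probe lay too close to background on the hsa-miR-205-5p arrays for a fold. The decrease there was at least 3.39-fold (limma adjusted p = 0.00924), a limit that sets the SCR mean against the lowest signal well above background on each hsa-miR-205-5p array, or the probe's own where that is higher. HSP90AB1 was −2.38 on 1 probe (adjusted p = 0.0137) and −0.35 on the other (adjusted p = 0.468). HSPA8 was −1.52 and did not pass (adjusted p = 0.117), with −2.42 (adjusted p = 0.00727) without SCR replicate 1 and −0.62 without SCR replicate 2. RAN, HSP90AB1 and HSPA8 belong to families with close copies in the genome, so their probes may share signal with those copies.

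Among the cofactors of DROSHA, 3 of 23 probes passed as lower with hsa-miR-205-5p and 2 as higher, near the 11.1% and 8.30% of all tested probes. SRRT (ARS2), which joins the cap-binding complex to primary miRNAs, was −1.34 on the probe of 1 transcript (limma adjusted p = 0.0094), −0.83 on a second (adjusted p = 0.0362) and 0.09 on the third (adjusted p = 0.783). Of 13 probes for tailing and decay of miRNAs, 1 passed as lower and 0 as higher, no more than the shares of all tested probes. It was the 5′ to 3′ exonuclease XRN2, which read 0.25 and 0.02 with hsa-miR-205-5p, 2.84 and 2.80 with hsa-miR-214-3p and 1.87 and 2.39 in SCR, a log2 fold change of −1.99 (adjusted p = 0.00914).

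Of the 33 probes for TNRC6A paralogs and silencing effectors, 1 passed as lower and 2 as higher with hsa-miR-205-5p, shares below the 11.1% and 8.30% of all tested probes. EDC3, an enhancer of mRNA decapping, read 0.49 and 0.34 with hsa-miR-205-5p, 2.10 and 2.13 with hsa-miR-214-3p and 2.32 and 2.87 in SCR, a log2 fold change of −2.18 (limma adjusted p = 0.0085). CNOT11, a subunit of the CCR4-NOT deadenylase, was higher by 1.20 (adjusted p = 0.0105). Of 9 probes for RNA-binding proteins found with Argonaute, 2 passed as lower and 1 as higher, beside 11.1% and 8.30% of all tested probes. The helicase MOV10 was −1.44 on 1 probe (adjusted p = 0.0156) and −0.08 on a probe of another transcript, and FXR2, a relative of the fragile X protein, was −1.28 (adjusted p = 0.00955). Without replicate 2 of hsa-miR-205-5p, limma called 0 of the 94 probes with hsa-miR-205-5p, with 16 lower and 11 higher at an unadjusted p under 0.05 (14.4% and 12.4% of all tested probes), and without SCR replicate 1 it called 17. The same fits called 0 of all 18464 tested probes and 20.9% of them.

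The PIWI Argonautes, which act in the germ line, could not be tested, since 0 of their 4 genes had a probe well above background on both arrays of a group. Of the transcripts that host the transfected miRNAs, DNM3OS, the host of miR-214, was −0.66 with hsa-miR-205-5p (limma adjusted p = 0.289), where 1 of the 2 arrays rose well above background, and 0.21 (adjusted p = 0.796) with hsa-miR-214-3p. MIR205HG, the host of miR-205, was not matched to a probe.

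The genes whose probes followed AGO2 most closely over the 6 arrays, among 12628 probes well above background on all of them, were HACL1 (Pearson r = 0.999), TCAF2 (0.998) and CYP2J2 (0.998). Each was high on both hsa-miR-205-5p arrays and low on the other 4, by 0.90, 1.90 and 1.88 (log2) against SCR. DICER1 was followed most closely by MAP3K7 (0.989), ZNF655 (0.977) and TEX13B (0.965), all of which were low on replicate 1 of hsa-miR-214-3p alone. With 6 points that fall into few groups, and many probes to choose from, such correlations are a description, and no p-value is given.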

How the data were processed

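RNA was labelled with 1 dye and hybridized to Agilent arrays. The authors deposited the scanner output of Feature Extraction 11.0, with an intensity per spot (the processed signal) from which background was subtracted and which was not scaled across arrays. A table of log2 values was deposited by the authors as well, for 50739 probes, whose columns have identical sorted values and correlate with log2 of the processed signal at 0.997 or more. Its centring is unknown (each column has a median of 3.49) and it served as an alternative.

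Groups came from the labels. Control and outlier spots were left out, spots of a probe were averaged, log2 was taken and each array's 75th percentile subtracted. Probes (50599) were named through RefSeq transcripts (GRCh38.p14, names only, since the array design uses another build), and 30275 had a symbol. Differences were tested in R 4.3.3 with limma 3.58.1 on all 6 arrays, with 3 residual and 2.47 prior degrees of freedom. The number of arrays limits the precision.

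The genes, the lists, the rules and the tests were chosen with earlier results of these data known. Named were all probes of the 10 genes, the called pathway probes of each comparison (the 12 with the largest change and above background on all 6 arrays where more were called), its extremes, and the 3 genes most like AGO2 and DICER1. Other probes of these genes and the PIWI and host transcripts were added for context. normexp (offset 50) was run on the median signal, since the files hold no mean signal. A slide block was not run, since all arrays lie on 1 slide. The other alternatives, including the methods' t-test, are in the closing section. Figures were drawn with matplotlib 3.10.9.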

Additional observations from a re-analysis of the deposited data

Results flagged for a closer look

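The results below differ between the precursors by limma's test of hsa-miR-205-5p against hsa-miR-214-3p itself, given as log2 differences with all 6 arrays in the fit. Among the 10 genes, hsa-miR-205-5p was lower for XPO5 on both tested probes (−1.16 and −2.12) and higher for AGO1 (1.05 and 0.88), AGO2 (0.79) and AGO3 (0.69). Of the 94 probes of the other pathway genes, 14 passed as lower and 12 as higher (16.0% and 15.7% of all tested probes). With the 2-fold limit, 12 and 7 were called (11.6% and 8.37%). Named here are only the 12 with the largest change and above background on all 6 arrays. Among them, hsa-miR-205-5p was lower for HSP90AB1 (−2.88), RAN (−2.87), XRN2 (−2.68), STIP1 (−2.58), HSPA8 (−2.01), CNOT7 (−1.73), EDC3 (−1.70), SRRT (−1.42) and MOV10 (−1.38). It was higher for TENT2, a poly(A) polymerase, by 1.89, for METTL3, an RNA methyltransferase, by 1.53 and for WTIP, an Argonaute-associated LIM protein, by 1.37. For CNOT7, a deadenylase, the other probe differed by 0.09 (adjusted p = 0.675 from limma), and the second probe of RAN differed by 0.25 (adjusted p = 0.468). The other probe of HSP90AB1 differed by −0.33 (adjusted p = 0.455), that of MOV10 by −0.31 (adjusted p = 0.348) and the brightest probe of SRRT by 0.07 (adjusted p = 0.833), and 0 of these 3 passed in limma. HSPA8 passed in 9 of 19 other settings.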

How the results depend on the processing

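Numbers here are called probes (adjusted p under 0.05 and 2-fold) unless stated. For hsa-miR-205-5p against SCR, 2 of the 12 probes of the 10 genes were called. The number was 0 with normexp, with no filter and with the methods' t-test after Benjamini-Hochberg, 1 with 4 arrays and with the methods' t-test, and 6 with no fold limit. It ran from 0 to 2 with an array left out, and was 0 without either hsa-miR-205-5p array. Of all tested probes, 12.2% were called, 5.37% with normexp, 0.945% with no filter, 6.22% and 0 without replicate 1 and 2 of hsa-miR-205-5p, and 0 with the t-test after adjustment. At unadjusted p, limma then had 1 probe lower and 5 higher with no filter and without either of these arrays, and 3 and 5 with normexp. The shares of all tested probes at that p were 6.64% lower and 36.3% higher with no filter, 17.3% and 11.1% without replicate 1, 14.4% and 12.4% without replicate 2, and 18.7% and 12.3% with normexp. Scaling to the median gave 2 lower and 0 higher in place of 1 and 1. It moves the median of all tested probes to −0.34, −0.17 and −0.13 in the 3 comparisons. For hsa-miR-214-3p the number was 0, or 1 at unadjusted p, and 0 to 1 with an array left out (1 without SCR replicate 2). Between the precursors it was 3, or 1 with normexp and with no filter, 6 with no fold limit, and 0 to 4 with an array left out. For the pathway lists, 10 probes were called with hsa-miR-205-5p, 16 with median scaling or no fold limit, 4 with no filter, 0 with the t-test after adjustment, and 0 to 17 with an array left out. With hsa-miR-214-3p it was 0, or 1 with the 75th percentile over probes above background on all arrays and with the t-test, 2 at unadjusted p, and 0 to 8 with an array left out (8 without SCR replicate 2). Between the precursors it was 19, or 6 with normexp, 12 with no filter, 10 with the t-test after adjustment, and 2 to 20 with an array left out. In the same fits the calls over all tested probes were 17.3% with median scaling, 19.4% with no fold limit and 0 to 20.9% with an array left out for hsa-miR-205-5p. For hsa-miR-214-3p they were 2.68%, 3.20% with the other percentile, 4.12% with the t-test, 6.56% at unadjusted p and 0 to 9.58% with an array left out. Between the precursors they were 19.9%, 7.55% with normexp, 3.65% with no filter, 12.1% with the t-test after adjustment, 31.8% with no fold limit and 2.41% to 22.7% with an array left out. The cause was not tested. Of the 12 probes of the 10 genes and the pathway probes named by rule, 0 reversed while passing the test under any setting. The other pathway probes were not followed singly.

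Replicate numbers did not pair the samples (correlations of the replicate differences between groups were 0.11, 0.01 and −0.05). With the replicate number as a block, 2, 0 and 3 probes of the 10 genes and 10, 0 and 17 of the pathway lists were called, beside 10.7%, 0 and 19.1% of all tested probes, though the brighter probe of AGO1 and both probes of AGO3 no longer passed against SCR (adjusted p = 0.064, 0.0701 and 0.0662 from limma). In the fits without an array, the lone array of a group was assumed to vary like the others.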
